A study of Mus musculus with 8 samples.

Results

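The sister microRNAs (miRNAs) mmu-miR-103-3p and mmu-miR-107-3p, below miR-103-3p and miR-107-3p, are cut from hairpins in the introns of the pantothenate kinase genes Pank1, Pank2 and Pank3. Both were read from the deposited table by name, and the precursor rows of each were added up. They are 2 of the 1978 mature miRNAs in that table and 2 of the 375 with enough counts to test. Small RNA had been sequenced from CD8+ T cells, enriched from spleen with magnetic beads against CD8a, of C57BL/6 mice, an inbred laboratory strain. The neonatal group held 4 libraries from mice of 5 to 7 days, and the adult group 4 libraries from mice of 12 weeks. The labels name no treatment and no altered gene. Whether each sample was 1 animal or a pool is not in the labels, so the p-values reflect the spread among these samples alone, and that spread may be technical.

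A miRNA guides Argonaute proteins to messenger RNAs that pair with its seed, bases 2 to 8, and lowers their output. Because miR-103-3p and miR-107-3p share this seed, they are expected to act on largely the same targets. In mice they are known as regulators of insulin sensitivity, with the caveolin gene Cav1 as a target, and in other settings as repressors of Dicer, the enzyme that cuts miRNAs from their hairpins. Their host genes encode pantothenate kinases, which catalyse the committed step of coenzyme A synthesis, so the hairpins lie within the transcript of a metabolic gene. Neither the host transcripts nor the targets were measured here.

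The mature sequences show how closely the pair are related and where they can be told apart. They are printed 5′ to 3′ from RefSeq (build GRCm38), with the seed in capitals.
miR-103-3p: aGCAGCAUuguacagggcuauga
miR-107-3p: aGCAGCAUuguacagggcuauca
The seed GCAGCAU was found in both, and in no other of the 1679 mature miRNAs of the RefSeq table, all of which are named in the count table. Counting from 1 at the 5′ end, the only difference from miR-103-3p to miR-107-3p is G22C, in a length of 23 bases. A read that ends before base 22 therefore matches both miRNAs equally.

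The hairpins show the same relation at the level of the loci, and are printed with the guide strand, the arm that is kept, in capitals.
Mir103-1: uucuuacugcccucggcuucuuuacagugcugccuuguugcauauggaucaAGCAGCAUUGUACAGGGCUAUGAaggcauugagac
Mir103-2: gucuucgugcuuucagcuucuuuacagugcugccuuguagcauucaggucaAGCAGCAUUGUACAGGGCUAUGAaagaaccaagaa
Mir107: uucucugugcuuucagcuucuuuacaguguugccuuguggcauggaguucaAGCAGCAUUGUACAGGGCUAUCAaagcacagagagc
Mir103-1 (chr11:35782396-35782481, plus strand) lies in intron 5 of the 6 introns of the Pank3 transcript Pank3-201 (GENCODE M21). Mir103-2 (chr2:131288052-131288137, plus strand) lies in intron 5 of 6 of Pank2-204, and Mir107 (chr19:34820687-34820773, minus strand) in intron 5 of 6 of Pank1-201. Each hairpin has the strand of its host and overlaps no exon of a host transcript. Over aligned positions the 2 miR-103 hairpins were 80.2% identical, and Mir107 was 83.9% identical to Mir103-2 and 80.9% identical to Mir103-1. Both miR-103 hairpins yield the same miR-103-3p, and past its 3′ end they first differ at base 2, where Mir103-1 continues with ag and Mir103-2 with aa.

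The libraries held 1281032 to 2606630 counts in all. miR-103-3p had 8877 to 17187 counts in neonatal libraries, against 2732 to 6088 in adult ones, and miR-107-3p had 279 to 582 in neonatal, against 144 to 310 in adult libraries. Levels are in CPM, the count of a miRNA relative to the depth of its library, with depth corrected by TMM, a trimmed mean of the ratios between libraries. Small RNA kits ligate adapters with sequence preferences, so the same miRNA is compared between libraries more safely than different miRNAs within 1 library. Lymphocyte miRNAs fixed as markers were present in every library, among them miR-150-5p with at least 108118 counts and miR-142a-3p, typical of blood cells, with at least 3425.

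miR-103-3p, the abundant sister, rose in neonatal CD8+ T cells. Its level was 4737, 5608, 4551 and 6146 CPM in neonatal libraries 1 to 4, against 2653, 2845, 2894 and 3020 CPM in adult libraries 1 to 4. Every neonatal library lay above every adult library, as for 26.4% of all tested miRNAs (57.3% did not overlap in either direction), and neonatal libraries 2 and 4 were the highest. The mean was 5260 ± 749 CPM for the neonatal group and 2853 ± 152 CPM for the adult group (SD, n = 4 each), a 1.84-fold difference. The log2 fold change, neonatal over adult, was 0.88 ± 0.14 (SE), with an adjusted p of 0.000138 by edgeR's quasi-likelihood test over all tested miRNAs. By this test 29.1% of all tested miRNAs rose and 63.2% changed in either direction, so a call by itself does not set miR-103-3p apart. It stood at rank 37 of the 375 by mean level and at rank 90 by fold change. In such bulk samples more cells with the miRNA and more of it per cell cannot be told apart.

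miR-107-3p, the scarcer sister, showed no such rise on the same scale. Its level was 149, 168, 141 and 208 CPM in neonatal libraries 1 to 4, against 140, 150, 147 and 156 CPM in adult libraries 1 to 4. The groups overlapped: neonatal libraries 2 and 4 lay above all adult libraries, and libraries 1 and 3 among them. The means were 167 ± 29.9 CPM for the neonatal group and 148 ± 6.61 CPM for the adult group (SD, n = 4 each). The log2 fold change of 0.17 ± 0.16 (SE) did not pass (edgeR's adjusted p = 0.382). It ranked 139 by mean level and 161 by fold change.

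The size of both fold changes depended on the scaling between libraries. Without TMM, on plain library totals, log2 fold changes of the tested miRNAs were higher by 0.626 on average. On totals miR-103-3p stood at 6103, 6947, 5909 and 7114 CPM in neonatal libraries, against 2132, 2241, 2336 and 2453 CPM in adult libraries. miR-107-3p stood at 192, 208, 183 and 241 CPM in neonatal libraries, against 113, 119, 118 and 126 CPM in adult libraries, and no longer overlapped. The log2 fold change then was 1.51 ± 0.12 for miR-103-3p and 0.79 ± 0.14 for miR-107-3p, which passed (edgeR's adjusted p = 0.000376). miR-103-3p was higher in neonatal libraries on either scale, while the call for miR-107-3p rests on the scale.

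**Figure D1:**
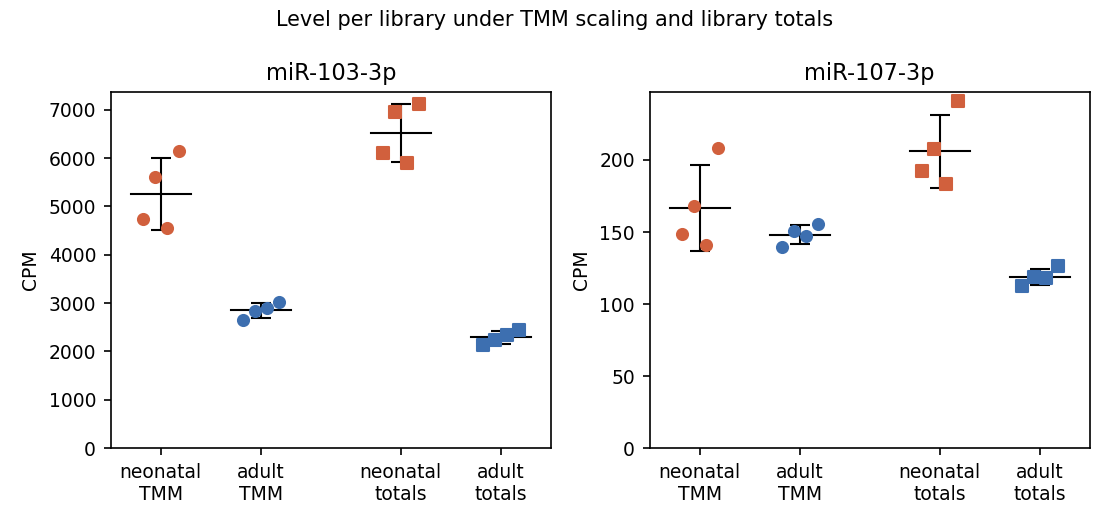
Level of miR-103-3p (left) and miR-107-3p (right) in CPM in each of 4 neonatal and 4 adult libraries, with circles for TMM scaling, squares for library totals, and bars for the mean and SD. miR-103-3p is separated by age on both scales, from 4551 CPM upwards in neonatal and up to 3020 CPM in adult libraries with TMM, whereas miR-107-3p overlaps with TMM and separates with totals.

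The balance of counts within the pair does not depend on that scale, since it compares 2 counts of the same library. It shifted towards miR-103-3p in neonatal libraries. Reads that end before base 22 match both miRNAs, and their part in this shift was not tested. miR-107-3p made up 3.05%, 2.91%, 3.00% and 3.27% of the pair's counts in neonatal libraries 1 to 4, against 5.02%, 5.03%, 4.83% and 4.89% in adult libraries 1 to 4. The 95% exact binomial intervals ran from 2.64% to 3.55% over the neonatal libraries and from 4.24% to 5.87% over the adult ones, so that no neonatal interval met an adult one. Copies of 1 molecule were not marked in these libraries, so the intervals speak of counting error alone. They are approximate even for that. The miR-107-3p counts were not whole in 7 of 8 libraries and were rounded, and a read divided between rows is not a separate draw. The log2 ratio of miR-107-3p to miR-103-3p was -4.99 ± 0.07 in neonatal and -4.26 ± 0.03 in adult libraries (SD, n = 4 each). The difference of -0.72, a ratio 0.606 times that of adult libraries, passed a two-sided exact permutation test (p = 0.0286, the smallest possible with 4 against 4 libraries), with all 4 neonatal libraries below all 4 adult ones. Taken as differences within same-numbered pairs, an exact sign-flip test gave p = 0.125, the smallest that 4 pairs allow. An edgeR fit of these 2 miRNAs alone gave -0.71. As counted, the fold change of miR-103-3p was thus larger than that of miR-107-3p, on either scale.

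Together the sisters took a larger share of all miRNA counts in neonatal cells. The share was 0.630%, 0.716%, 0.609% and 0.736% in neonatal libraries 1 to 4, against 0.225%, 0.236%, 0.245% and 0.258% in adult libraries 1 to 4. The exact binomial intervals were narrow, from 0.598% to 0.746% over the neonatal and from 0.216% to 0.264% over the adult libraries. The mean was 0.672% ± 0.0624 in neonatal and 0.241% ± 0.0142 in adult libraries (SD, n = 4 each), a difference of 0.431 percentage points (two-sided exact permutation test, p = 0.0286; exact sign-flip test within pairs, p = 0.125). Within the neonatal group libraries 2 and 4 lay above libraries 1 and 3, by more than counting error. A share of counts follows library totals and also falls or rises with what the other miRNAs take.

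**Figure D2:**
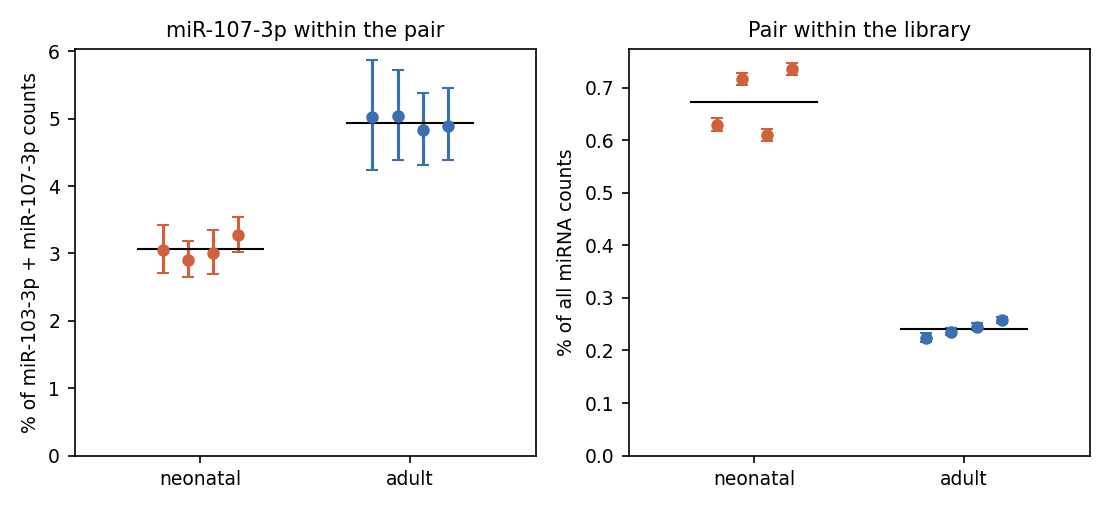
Left, miR-107-3p as a percentage of the counts of miR-103-3p and miR-107-3p together; right, both as a percentage of all miRNA counts, with 1 point per library, its 95% exact binomial interval, and a line at the group mean. The neonatal libraries sit at 2.91% to 3.27% on the left, below the adult libraries at 4.83% to 5.03%, and above them on the right.

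The deposited rows show how far the 3 loci were separated. miR-103-3p had a row for each hairpin, and those rows were nearly equal: in neonatal library 1 the Mir103-2 row held 4474 and the Mir103-1 row 4402 counts, and in adult library 1 they held 1372 and 1359. Rows of like size are what sharing 1 sequence between 2 loci gives, so the output of the Pank3 and Pank2 introns cannot be told apart. Most of these values were not whole (miR-107-3p in 7 of 8 libraries), and in 4 of 8 libraries all 3 rows, miR-107-3p included, ended in the same decimals (0.33 or 0.67), as when a read is divided among 3 hairpins. How many counts of miR-107-3p came from such divided reads cannot be read from the table, and their part in the ratio was not tested.

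The small gap between the miR-103-3p rows was itself uneven, an observation made after the values were seen and given without a test. The Mir103-2 row exceeded the Mir103-1 row by 72, 95, 71.5 and 99 counts in neonatal libraries 1 to 4, and by 13, 5, 11 and 21 counts in adult libraries 1 to 4. This was 0.576% to 0.811% of miR-103-3p counts in neonatal and 0.123% to 0.476% in adult libraries. The ranges did not meet, but the adult gaps rest on few counts. Only reads that run past the mature ends, at least to base 2 after the guide or to base 4 before it, can differ between these hairpins.

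The other arms of the 3 hairpins, the strands discarded after Dicer cutting, are shown because their loci can partly be told apart, with bases 2 to 8 in capitals.
miR-103-1-5p: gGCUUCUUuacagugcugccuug
miR-103-2-5p: aGCUUCUUuacagugcugccuug
miR-107-5p: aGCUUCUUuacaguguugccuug
From miR-103-2-5p the others differ by A1G (miR-103-1-5p) and C16U (miR-107-5p). They were all but undetected: miR-103-2-5p had 0, 1, 0 and 3 counts in the neonatal libraries, against 0, 0, 2 and 3 in the adult ones, and miR-103-1-5p had 1 count in adult library 4 alone. miR-107-5p had a count of 0 in all libraries, which allows up to 3 counts in each (1.15 to 2.34 CPM on library totals). Too few for a test, they give no view of the output of each Pank intron, and the source of the rise of miR-103-3p was not tested.

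The miR-15/16 family, known for slowing the cell cycle, carries the letters AGCAGC at bases 2 to 7, where the Pank pair carries them at bases 1 to 6. The 2 most abundant members and the one that rose are printed with the seed in capitals, for the shift by 1 base.
miR-16-5p: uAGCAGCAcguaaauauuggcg
miR-15b-5p: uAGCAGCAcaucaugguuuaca
miR-503-5p: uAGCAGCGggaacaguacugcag
Of the 9 members listed, 6 were tested, 3 fell and 1 rose, with a median log2 fold change of -0.73. Of all tested miRNAs 34.1% fell and 29.1% rose, with a median of -0.05, so that 4 calls among 6 members are near the 63.2% called overall. miR-16-5p fell to 2686 ± 453 CPM in neonatal libraries, against 6357 ± 511 CPM in adult libraries, and miR-15b-5p to 1306 ± 323 CPM in neonatal libraries, against 3266 ± 507 CPM in adult libraries (SD, n = 4 each). Neither overlapped between the ages, and both remained lower on library totals (-0.62 and -0.70). miR-195a-5p also fell (-2.48 ± 0.35), on 4 to 8 counts in neonatal and 12 to 34 in adult libraries. miR-503-5p, from a cluster on the X chromosome, rose to 53.8 ± 8.92 CPM in neonatal libraries, against 5.92 ± 2.98 CPM in adult libraries. It had 99 to 153 counts in neonatal and 2 to 18 in adult libraries, so the size of its rise is imprecise. Neither miR-15a-5p (-0.22 ± 0.29, and 0.39 on library totals) nor miR-322-5p (0.64 ± 0.39) passed by edgeR, but miR-322-5p passed on library totals (1.25) and with an offset for GC content (0.87). The 2 most abundant relatives with the shifted seed, miR-16-5p and miR-15b-5p, thus went the opposite way to miR-103-3p, while miR-503-5p rose. The number of calls does not set this list apart.

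Other miRNAs housed in protein-coding genes give a frame for intronic hairpins. Of 37 such miRNAs listed, 33 were tested, 5 rose and 12 fell, with a median of -0.19. Over all tested miRNAs 29.1% rose and 34.1% fell, with a median of -0.05. The fallers are near that share and do not set this list apart, while with TMM the risers lie below it. With the replicate number as a block 9 rose and 13 fell, beside 125 risen and 140 fallen of all 375. On library totals 17 rose and 4 fell, beside 186 risen and 68 fallen. GENCODE placed 26 of the 28 with a RefSeq sequence inside a protein-coding gene on the same strand. The most abundant were miR-26a-5p, of the Ctdsp phosphatase genes, which fell by 1.02 on the log2 scale, and miR-25-3p, of the replication gene Mcm7, which averaged 32021 ± 792 CPM over neonatal libraries and 28669 ± 2531 CPM over adult libraries and did not overlap between the ages. The log2 fold change of 0.16 ± 0.12 missed the threshold by edgeR with TMM, but passed with RLE scaling and with DESeq2 (0.28 in both) and on library totals (0.79). miR-139-5p, of the phosphodiesterase gene Pde2a, had the largest fall (-2.11 ± 0.14). The largest rise was that of miR-301a-3p (2.66 ± 0.43), which had 22 to 50 counts in neonatal and 0 to 6 in adult libraries, so its size is imprecise.

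miRNAs with links to metabolism or to Dicer were set beside the pair for its known roles. Of 15 metabolic miRNAs 10 were tested, 2 rose and 6 fell, with a median of -0.78. For all tested miRNAs 29.1% rose and 34.1% fell, with a median of -0.05. On library totals 4 metabolic miRNAs rose and 4 fell, beside 186 risen and 68 fallen of all 375. miR-29a-3p had the largest fall (-3.42 ± 0.26). The most abundant, miR-27b-3p (-0.84 ± 0.19) and miR-30c-5p (-0.34 ± 0.13), fell too, but on library totals miR-27b-3p did not pass (-0.22) and miR-30c-5p was higher (0.29, edgeR's adjusted p = 0.0328). The call for miR-30c-5p held in only 7 of 19 alternatives. miR-122-5p, the main liver miRNA, had the largest rise (2.08 ± 0.24). The second list held the let-7 family, known to repress Dicer, with miR-98-5p, miR-192-5p, miR-221-3p and miR-222-3p. Of these 12, all tested, 9 fell, with a median of -0.82, beside the same 34.1% and -0.05 for all tested miRNAs. Most of this list is 1 family, so its calls may not be separate measurements. On library totals 3 of the 12 fell and 2 rose, beside 68 fallen and 186 risen of all 375. let-7b-5p fell most (-2.52 ± 0.17), the most abundant let-7g-5p by 0.89 and let-7f-5p by 0.82, and both of these did not pass on library totals (-0.26 and -0.19), nor did let-7f-5p with the GC offset (-0.26). miR-98-5p was at 0.25 ± 0.16 and did not pass by edgeR, but passed on library totals (0.88) and with the GC offset (0.80). No messenger RNA was measured, so Dicer itself is not covered.

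**Figure D3:**
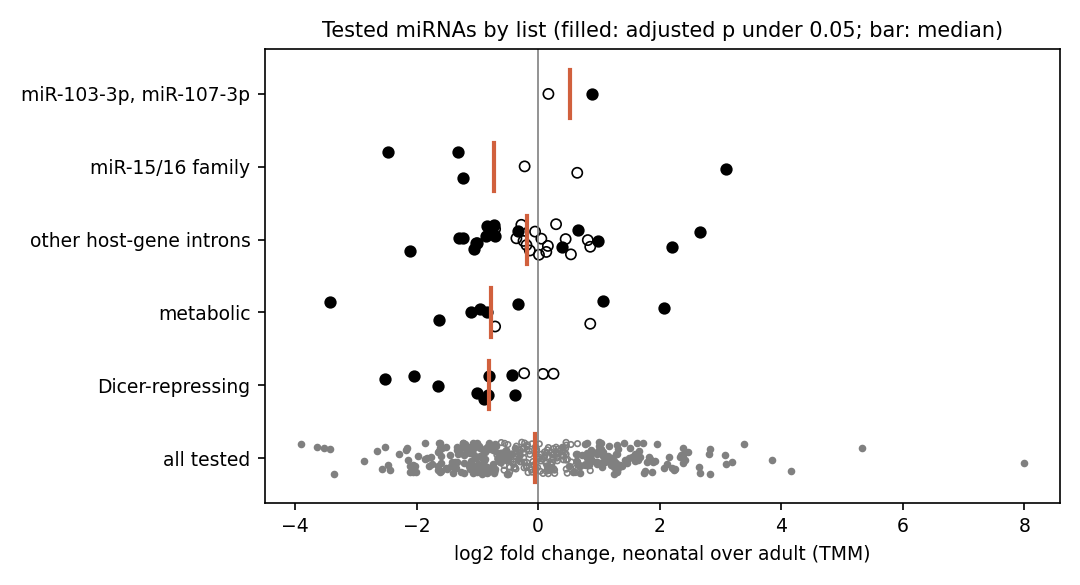
Log2 fold change, neonatal over adult with TMM scaling, of each tested miRNA by list, with filled points for an edgeR adjusted p under 0.05, open points for the others, and an orange bar at the median. miR-103-3p (0.88, filled) and miR-107-3p (0.17, open) lie at or right of 0, while the medians of the miR-15/16, metabolic and Dicer lists lie at -0.73, -0.78 and -0.82.

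Profiles most like those of the sisters were sought among 158 other miRNAs with a mean of at least 100 CPM, by the root mean square difference of log2 CPM over the 8 libraries after each miRNA was centred on its own mean. For miR-103-3p the nearest were miR-93-5p (0.119), miR-128-3p (0.121), miR-106a-5p (0.124), miR-363-3p (0.135) and miR-17-5p (0.162). Their log2 fold changes ran from 0.58 for miR-17-5p to 0.98 for miR-128-3p, which averaged 8516 ± 838 CPM over neonatal libraries and 4311 ± 408 CPM over adult libraries. For miR-107-3p they were miR-484 (0.108), miR-652-3p (0.108), miR-181a-5p (0.115), miR-185-5p (0.131) and miR-20b-5p (0.138), with log2 fold changes of 0.09 to 0.29 and edgeR's adjusted p of 0.129 to 0.567. With RLE scaling and with DESeq2 2 of these 5 passed, miR-181a-5p (0.32, DESeq2 adjusted p = 0.0286) and miR-185-5p (0.40, DESeq2 adjusted p = 0.0358), and miR-185-5p also passed with the replicate number as a block (0.29, edgeR's adjusted p = 0.0416). On library totals all 5 passed by edgeR, as miR-107-3p did, with log2 fold changes from 0.72 for miR-484 to 0.92 for miR-185-5p. The sisters differed from each other by 0.364, so that miR-107-3p was the 25th nearest to miR-103-3p and miR-103-3p the 50th nearest to miR-107-3p. All these values share the same 8 libraries and their scaling. The profiles hold the age difference, so like fold changes and calls among neighbours follow from how they were chosen.

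Those miRNAs of other cells that could be tested also moved with age. The 7 red cell miRNAs, 3 tested and all 3 higher, took 0.0359% to 0.101% of counts in neonatal and 0.00949% to 0.0204% in adult libraries. Of the 3, miR-486a-5p and miR-486b-5p had nearly equal log2 fold changes (1.84 and 1.82) and levels, so they may not be separate measurements. miR-486b-3p, not tested, had 0 to 2 counts in neonatal libraries and 0 in all adult libraries. The 2 of endothelium and platelets, both higher, took 0.0162% to 0.0185% in neonatal, against 0.00375% to 0.00607% in adult libraries, and the 6 stromal ones, 3 tested and all 3 higher, 0.0133% to 0.022% in neonatal, against 0.00301% to 0.00661% in adult libraries. The 2 myeloid ones, miR-223-3p and miR-223-5p, took at most 0.0011% in neonatal and 0.000717% in adult libraries. The liver miRNA miR-122-5p, listed above as metabolic, averaged 1200 ± 360 CPM over neonatal libraries and 286 ± 70.4 CPM over adult libraries (SD). Of the 6 lymphocyte miRNAs, 8.81% to 9.55% of neonatal and 11.4% to 17.0% of adult counts, 5 fell. Beside these calls stand 29.1% risen and 34.1% fallen among all tested miRNAs, and each list is short. The part of such cells in the rise of miR-103-3p was not tested.

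Under 19 alternative settings run for both sisters miR-103-3p stayed higher and past the threshold, with log2 fold changes of 0.81 to 1.51, while miR-107-3p ran from 0.10 to 0.79 and passed on library totals alone.

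**Figure D4:**
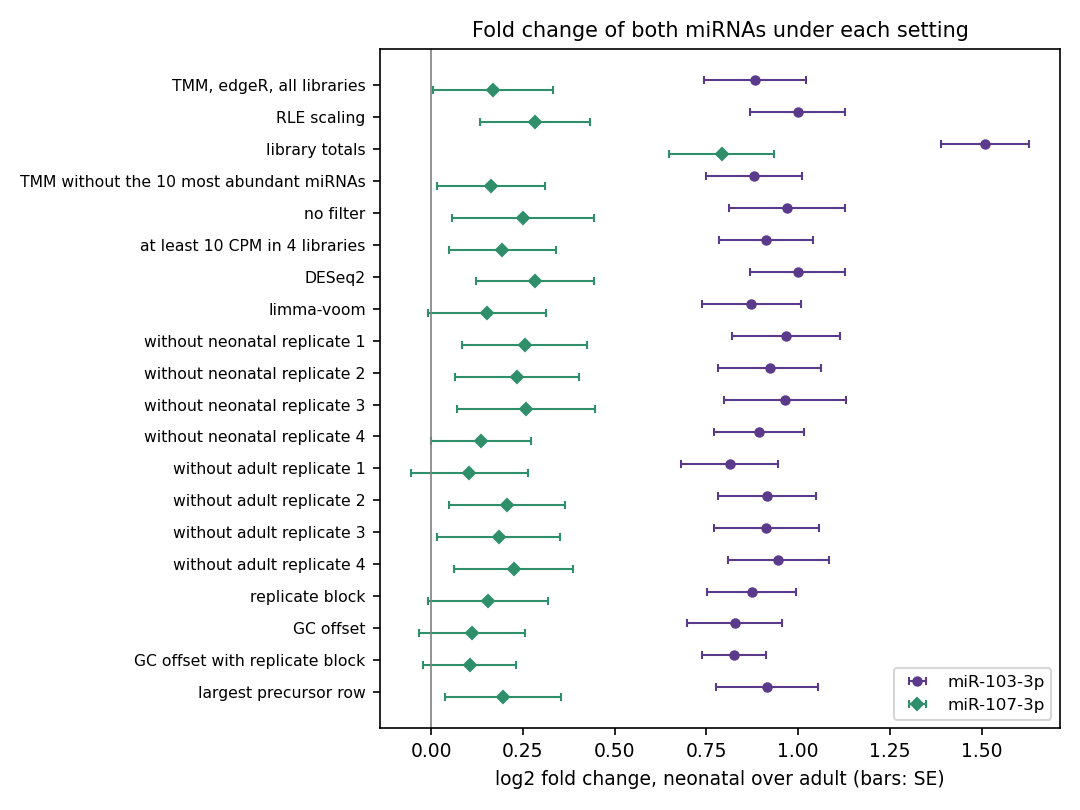
Log2 fold change, neonatal over adult, of miR-103-3p (circles) and miR-107-3p (diamonds) with SE bars under each setting, from TMM scaling with all libraries at the top. The miR-103-3p points lie between 0.81 and 1.51 and, in every setting drawn, to the right of miR-107-3p.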

How the data were processed

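The values are estimated counts, deposited by the authors without scaling to depth, with 1 row for each mature miRNA on each precursor. Reads had been placed on mm10, per the submitters' processing notes, and libraries made with a NEBNext small RNA kit, per the labels' protocols. Which aligner, counter and miRNA annotation were used is not given in the sources used here. Among non-zero values 71.4% were whole within 0.001. Values were summed over precursor rows per miRNA, rounded and filtered with filterByExpr (minimum count 10, minimum total 15), which left 375 miRNAs. Age was tested with edgeR 4.0.16 in R 4.3.3 (TMM, robust quasi-likelihood F test, neonatal over adult), and p-values were adjusted over all 375 by the Benjamini-Hochberg method at 0.05. The SE is the fold change divided by the square root of F. The ratio used a pseudocount of 0.5. The code was tested on simulated data.

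Alternatives were RLE scaling, library totals, TMM without the 10 most abundant miRNAs, other filters, DESeq2 1.42.0, limma-voom (limma 3.58.1), leaving out each library, the replicate number as a block, an offset for GC content of the mature sequence (found for 314 miRNAs, 83.7%) and the largest precursor row. Same-numbered neonatal and adult libraries deviated together from their group means (r = 0.256 to 0.415 in 4 pairs), so the numbers were taken to pair samples from this check alone, as the labels do not say what they stand for. Some unlike-numbered libraries correlated as much (up to r = 0.482). No library was a copy of another of its group (chi-square over degrees of freedom 15.7 or more). The miRNAs named were the pair, their other arms, members of the lists (the most abundant, smallest p, largest fall and rise, and all tested miR-15/16 members) and the 5 nearest profiles of each. The pair and the lists were chosen with earlier results of these data known.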

Additional observations from a re-analysis of the deposited data

How the results depend on the processing

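The number of changed miRNAs, 237, ran from 213 to 287 under 19 alternatives, and with library totals the split was 186 higher and 68 lower in place of 109 and 128. miR-103-3p kept its direction and call in all 20 alternatives, 1 of them chosen after the data were seen (both sisters summed as 1 feature, 0.90), and ran from 0.81 to 0.97 without any 1 library. miR-107-3p passed with library totals alone (0.79, where all fold changes move up). With the replicate number as a block, miR-103-3p was at 0.87 and miR-107-3p at 0.16, and no call for either changed. The ratio (-0.72) and the share (0.43 percentage points) kept their values, but an exact sign-flip test within pairs cannot go below p = 0.125 with 4 pairs, so neither could pass. The share difference stood at 0.264 with the largest precursor row and 1.09 with a total that leaves out the 10 most abundant miRNAs, and from 0.411 to 0.453 without any 1 library. The ratio ran from -0.76 to -0.70 without any 1 library. For the other 28 named miRNAs, whose alternatives were added after the data were seen, 482 of 526 values kept their direction and call. miR-15a-5p (0.39) and miR-30c-5p (0.29) turned above 0 with library totals. miR-484 and miR-652-3p turned below 0 with the GC offset (-0.30 and -0.15) and with the GC offset and the block (-0.30 and -0.14), where the cause was not tested. miR-30c-5p also lost its call with RLE scaling (adjusted p = 0.13), DESeq2 (0.0864), no filter (0.241), the GC offset (0.157, and 0.0696 with the block) and without adult library 3 or 4 or any neonatal library (0.0539 to 0.157), and miR-185-5p, miR-20b-5p and miR-98-5p passed without adult library 2 (0.0211 to 0.0311). Among the lists, the 5 host-gene miRNAs that rose became 9 with RLE, DESeq2, the block or the GC offset and block, 8 without a filter and 17 with totals (4 fell in place of 12). Risers of the miR-15/16 list went to 2 with totals or either GC offset, and of the metabolic list to 4 with totals and 1 without adult library 1 or 4. In the Dicer list 2 rose with totals or with the GC offset and block and 1 with the GC offset or without adult library 2, while 3 fell with totals in place of 9. The other arms could not be tested with a filter, and without one miR-103-2-5p stood at -0.71 ± 1.21 and miR-103-1-5p at -1.75 ± 1.52.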
